A study of Homo sapiens with 4 samples.

Results

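The messenger RNAs of 10 genes that copy DNA at the replication fork were followed in LNCaP and PC3 cells, 2 lines of human prostate cancer, with and without atorvastatin (ATO). The 10 genes were the sliding clamp PCNA, the clamp loader subunits RFC2, RFC3, RFC4 and RFC5, the catalytic polymerase subunits POLA1, POLE and POLD1, and FEN1 and LIG1, which finish the lagging strand. They were taken by name, as every probe on the array that carried one of these gene names, and make up 10 of the 27274 gene names on the array. They were represented by 13 probes and 22 spots on each array.

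Both lines were bought from ATCC and grown in RPMI medium with 10% FBS. LNCaP responds to androgen and PC3 does not, and each stands for 1 established line rather than for a tumor. LNCaP ATO and PC3 ATO cells received 10 µM ATO, a statin that inhibits cholesterol synthesis, for 24 h, starting in fresh medium at about 30% confluence. LNCaP control and PC3 control cells were untreated according to the labels, which name no vehicle. Each of the 4 groups was measured on 1 array, all on 1 slide in 1 scan, so position on the slide and group cannot be told apart. With 1 array a group there was no replicate check within a line, and the number of arrays limited the precision.

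At a replication fork, PCNA forms a ring around DNA and holds the polymerases on their template. The RFC complex opens the ring and loads it. DNA polymerase alpha starts each new strand, polymerase epsilon extends the leading strand and polymerase delta the lagging strand, where FEN1 trims the flaps of Okazaki fragments and LIG1 seals the remaining nicks. Many of these genes are E2F targets whose transcripts accumulate in cells entering S phase. In cultures such as these, fewer cells in S phase and less RNA per cell cannot be told apart.

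All 10 genes were well above background on all 4 arrays. In both lines all 10 were lower after ATO, compared with 45.4% of all genes measured in LNCaP and 50.7% in PC3. The differences were small in LNCaP, where no member reached 1.5-fold, and larger in PC3, where 7 of 10 did. Of all genes, 1.99% were lower by 1.5-fold in LNCaP and 10.3% in PC3. PCNA was 1.94-fold lower in PC3 and 1.24-fold lower in LNCaP. No member passed the adjusted limma test of ATO over both lines, so these are differences between arrays.

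Because many replication genes are known E2F targets, the promoter sequences were read from RefSeq (GRCh38.p14), with 250 bases before and 50 after each start. All 10 members had an entry. The letters TTTNNCGC, a loose form of the E2F recognition motif, were found on either strand in 6 of the 10 members, compared with 8.23% of the 27305 genes in that table. The 6 matches are shown with 10 bases on each side, the matched letters in capitals, in the direction of transcription.
PCNA: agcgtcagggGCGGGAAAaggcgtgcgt
RFC3: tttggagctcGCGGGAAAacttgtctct
RFC5: cgagagttgcTTTTGCGCgcgaactgta
POLA1: tcatcacaggGCGCCAAAcgcgcgtccg
POLE: gggtgggagcGCGCCAAAtttctcccct
LIG1: cttcacccctTTTCCCGCcctcctccca
PCNA and RFC3 shared the same 8 capital letters, LIG1 held that form on the other strand, and POLA1 and POLE shared another form. The windows lay at chr20:5126664-5126691 (PCNA, minus strand), chr13:33818084-33818111 (RFC3, plus strand), chr12:118016702-118016729 (RFC5, plus strand), chrX:24693771-24693798 (POLA1, plus strand), chr12:132687343-132687370 (POLE, minus strand) and chr19:48170441-48170468 (LIG1, minus strand). The first capital letter stood 59 bases before the start in PCNA, 55 in RFC3, 137 in POLA1, 18 in POLE and 114 in LIG1, and at position 10 after the start in RFC5. No match lay in the windows of RFC2, RFC4, POLD1 and FEN1. Of 82 other replication genes with an entry, 32 held the motif. The 5 letters CCAAT, found in 39.7% of all genes, were present in PCNA, RFC5, POLA1 and POLE, the letters GGGCGG, found in 48.3%, in 8 members, and the letters TTTGAA, found in 18.2%, in none. Both strands were searched for each, and the E2F and GGGCGG matches overlapped in PCNA and LIG1.

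The PCNA promoter is shown in full up to the start used above, since PCNA is the member with the most spots. It lies at chr20:5126623-5126872 on the minus strand (GRCh38.p14). Capitals mark the TTTNNCGC match and the CCAAT matches on either strand, 3 of the latter in this stretch. RefSeq gave PCNA and POLD1 a second start each, and the window of the other PCNA start held no TTTNNCGC.
PCNA promoter: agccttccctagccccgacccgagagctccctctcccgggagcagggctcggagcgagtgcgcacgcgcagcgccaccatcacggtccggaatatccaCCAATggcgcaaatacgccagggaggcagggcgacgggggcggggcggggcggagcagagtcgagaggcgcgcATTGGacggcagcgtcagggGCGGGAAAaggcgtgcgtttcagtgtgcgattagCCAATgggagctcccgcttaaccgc
The log2 ratios in PC3 ran from -1.02 to -0.47 in the 6 members with the E2F letters and from -0.89 to -0.38 in the 4 without, so that these ranges overlapped.

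PCNA, the clamp, was measured by 2 probes 2207 bases apart in the hg18 coordinates of the files, and their sequences are shown because they read the same transcript at separate places.
PCNA probe 1: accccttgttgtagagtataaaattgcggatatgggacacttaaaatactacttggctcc
PCNA probe 2: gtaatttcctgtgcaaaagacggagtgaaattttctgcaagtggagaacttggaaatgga
Probe 1 lay at chr20:5043957-5044102, a span of 146 bases for a probe of 60, and probe 2 at chr20:5046164-5046223, both on the minus strand. Probe 1 was printed 10 times on each array. Its intensity over the 10 spots ran from 7589 to 9118 in LNCaP control (median 8544) and from 6707 to 7935 in LNCaP ATO (median 7511). It ran from 9065 to 11112 in PC3 control (median 10477) and from 4841 to 5662 in PC3 ATO (median 5099). The PC3 arrays did not overlap, while the highest LNCaP ATO spot lay above the lowest LNCaP control spot.

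After each array was scaled to its 75th percentile, the log2 ratio of ATO over control for probe 1 was -0.31 ± 0.08 in LNCaP and -0.96 ± 0.11 in PC3 (SD over 10 spots of 1 array pair, technical only). All 10 copies were lower after ATO in both lines. They ranged from -0.46 to -0.17 in LNCaP and from -1.13 to -0.74 in PC3, and these ranges did not overlap. Probe 2, with 1 spot, gave intensities of 8723 and 7022 in LNCaP (control, then ATO) and 9065 and 4873 in PC3. Its log2 ratios were -0.41 and -0.85. Between the control arrays, PCNA differed by 0.03 on probe 1 and by -0.19 on probe 2 (log2, PC3 over LNCaP), so the probes disagreed in sign there.

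**Figure D1:**
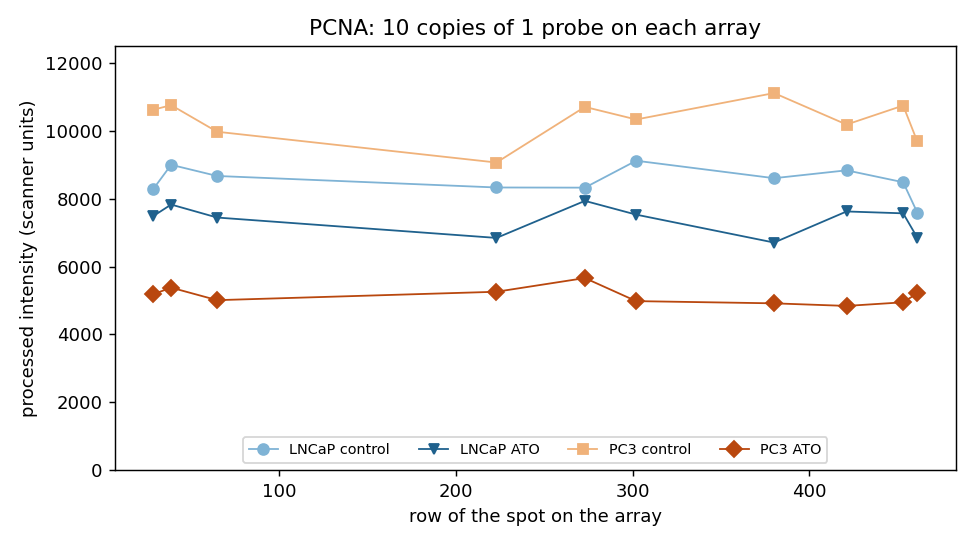
Processed intensity (scanner units) of the 10 copies of PCNA probe 1 against the row of the spot on the array, 1 line for each of the 4 arrays. PC3 ATO stayed between 4841 and 5662 at every position and PC3 control between 9065 and 11112, and in each position the ATO spot of a line lay below its control spot.

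The clamp loader is a ring of a large subunit and 4 small ones, and the members are the small subunits. RFC2 (chr7:73287802-73287861, hg18) had intensities of 1794 and 1573 in LNCaP (control, then ATO) and 1816 and 1348 in PC3. Its log2 ratios were -0.29 (LNCaP) and -0.38 (PC3). RFC3 (chr13:33308688-33308747) had 1123, 1009, 1498 and 716 in the same order of arrays. It was the 1 member past 2-fold in PC3, with a log2 ratio of -1.02 against -0.26 in LNCaP. A separate RFC3 probe, designed for transcript variant 2 (chr13:33307294-33307353), read 1196, 936, 1414 and 655, with log2 ratios of -0.46 and -1.06.

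RFC4 (chr3:187990695-187990824) had intensities of 6673 and 4958 in LNCaP (control, then ATO) and 4792 and 3144 in PC3. The log2 ratios were -0.53 (LNCaP) and -0.56 (PC3), and with normexp background correction -0.33 and -0.78. RFC5 (chr12:116954157-116954216) read 3556, 2937, 2993 and 1561, which gave -0.38 in LNCaP and -0.89 in PC3. For both genes PC3 ATO was the lowest of the 4 arrays and LNCaP control the highest.

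POLA1 is the catalytic subunit of the polymerase that lays down the RNA and DNA primers. On its probe (chrX:24924824-24924883) the intensities were 1806 and 1786 in LNCaP (control, then ATO) and 2349 and 1276 in PC3. The log2 ratio of -0.12 in LNCaP was the smallest of the 10 and within the scanner's error, and that in PC3 was -0.83. POLD1 (chr19:55613018-55613077), the catalytic subunit of polymerase delta, read 775, 679, 1045 and 629, with log2 ratios of -0.29 and -0.69.

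POLE, the catalytic subunit of polymerase epsilon, had 2 probes 31716 bases apart, which are shown because only the first was well above background.
POLE probe 1: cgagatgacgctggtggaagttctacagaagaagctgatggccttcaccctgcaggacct
POLE probe 2: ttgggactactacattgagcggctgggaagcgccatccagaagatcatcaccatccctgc
Probe 1 (chr12:131712305-131712364, hg18, minus strand) read 380 and 318 in LNCaP (control, then ATO) and 426 and 266 in PC3. Its log2 ratios were -0.36 (LNCaP) and -0.63 (PC3), and with normexp background correction they were -0.19 and -0.43, short of 1.5-fold. Probe 2 (chr12:131744021-131744080) read 15.6 to 18.8 on the 4 arrays and was not well above background on any, so it carries no ratio. No level was compared between the probes.

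FEN1 (chr11:61320605-61320663), the flap endonuclease, had intensities of 3394 and 2695 in LNCaP (control, then ATO) and 2996 and 1562 in PC3. The log2 ratios were -0.43 (LNCaP) and -0.89 (PC3). LIG1 (chr19:53310634-53310693), the replicative DNA ligase, read 1515, 1425, 1884 and 1312, with log2 ratios of -0.19 and -0.47. The LNCaP ratio of LIG1, like that of POLA1, was within the scanner's error. PC3 ATO was thus the lowest array for every member, after scaling. The share of all genes with PC3 ATO lowest was not counted.

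**Figure D2:**
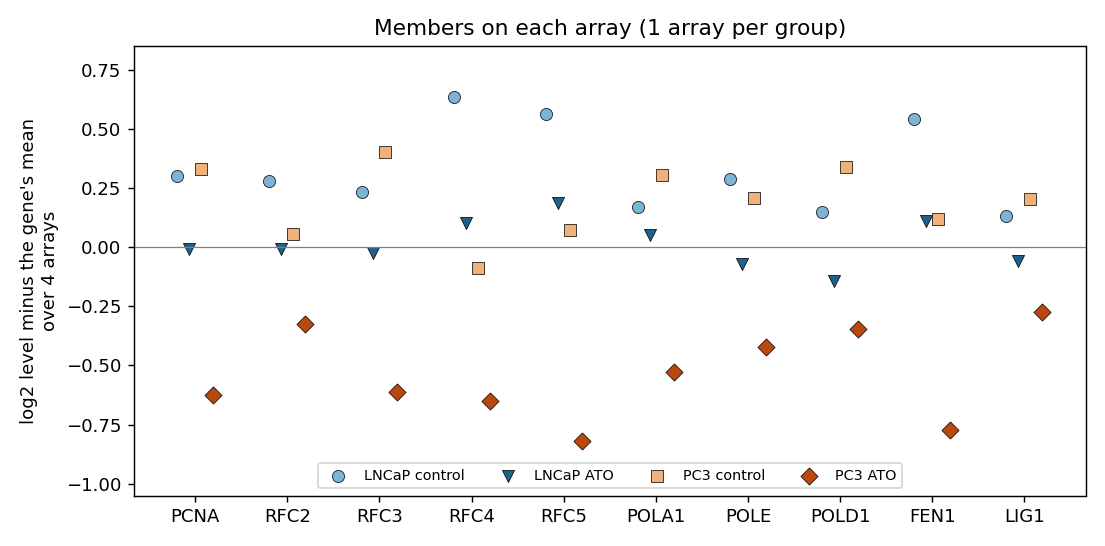
Scaled log2 level of each member on each of the 4 arrays (1 array per group), as the difference from that gene's mean over the 4 arrays. The PC3 ATO array (dark diamonds) is the lowest for all 10 genes, and within each line the control marker lies above the ATO marker. The share of all genes with PC3 ATO lowest was not counted.

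Taking the members as a group, the median log2 ratio was -0.30 in LNCaP and the range -0.53 to -0.12, while the median of all 13739 genes measured in that line was 0. None of the 10 was lower by 1.5-fold, a size reached by 1.99% of all genes. In PC3 the median of the members was -0.76 and the range -1.02 to -0.38, against -0.01 over all 13815 genes. There 7 of 10 were lower by at least 1.5-fold, compared with 10.3% of all genes. The count was 5 with scaling to the 50th percentile, 6 with cyclic loess or the mean over probes, and 10 with spike-in scaling. The mean over probes took POLE to -0.36, since it includes POLE probe 2, which was not well above background. In the main setting the 3 short of 1.5-fold were RFC2, RFC4 and LIG1. Set within their roles, the PC3 median was -0.73 for the 4 loader subunits, -0.69 for the 3 polymerases and -0.68 for FEN1 and LIG1.

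The error of a log2 ratio on single spots, from the scanner's own error estimate, was 0.20 to 0.22 in LNCaP and 0.20 to 0.23 in PC3. Of the 9 members measured by 1 spot, 2 were lower by more than 2 such errors in LNCaP (RFC4 and FEN1), compared with 2.16% of all probes with 1 spot well above background on both arrays. In PC3 8 were, all but RFC2, compared with 11.8%. Probes printed repeatedly on the arrays had a median SD of 0.11 in LNCaP and 0.12 in PC3 for the ratio of matched spots. These errors cover the array and not the culture.

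**Figure D3:**
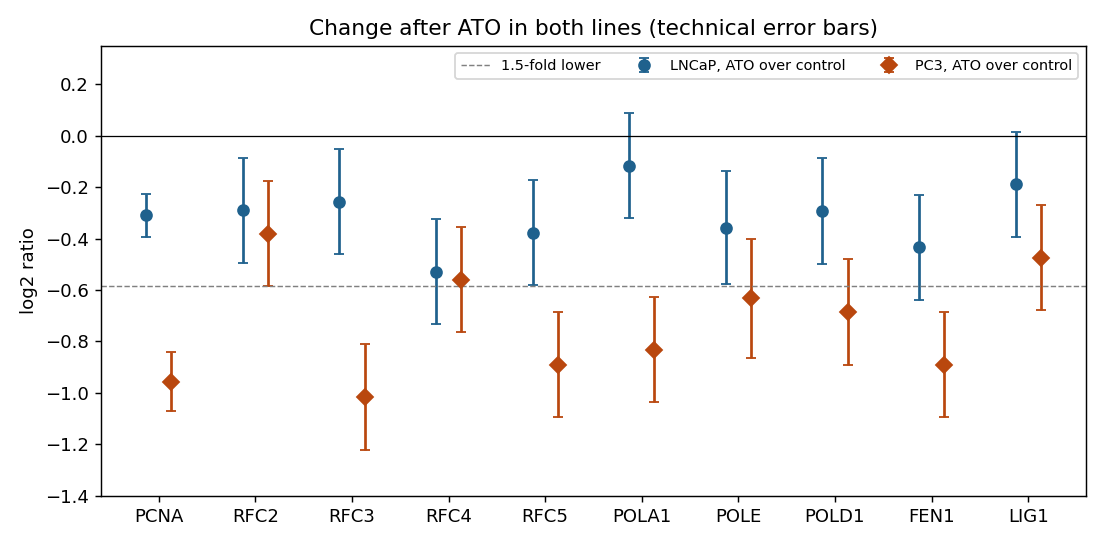
Log2 ratio of ATO over control for the 10 members in LNCaP (circles) and PC3 (diamonds). Bars are the SD over 10 spots for PCNA and the scanner's error of 1 spot for the other genes, both technical. All values are below 0, and 7 PC3 values lie below the dashed line at 1.5-fold.

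The log2 ratio was lower in PC3 than in LNCaP for all 10 members, and the share of all genes with that order was not counted. Over all genes, 1.5-fold differences were also more frequent in PC3. There 10.3% were lower and 8.20% higher, against 1.99% and 2.77% in LNCaP. Among the members the gap, PC3 minus LNCaP, was -0.76 for RFC3, -0.71 for POLA1, -0.65 for PCNA, -0.51 for RFC5 and -0.46 for FEN1. It was -0.39 for POLD1, -0.29 for LIG1, -0.27 for POLE, -0.09 for RFC2 and -0.03 for RFC4. The gaps of RFC2 and RFC4 were smaller than the scanner's error of a single ratio, at least 0.20. A gap carries the errors of both ratios, so those of POLE and LIG1 are uncertain as well. The difference between the lines was not tested, as 1 array a group leaves no spread for it. With scaling to the 50th percentile the gap of RFC2 and RFC4 turned above 0, and with normexp background correction that of RFC2 did.

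The size of the PC3 difference depended on how the arrays were scaled. Scaling to the 50th percentile moved the median of all genes in PC3 to 0.19 and that of the members to -0.56, and scaling to the spike-in control probes moved them to -0.34 and -1.10. These scalings and that of the main setting each subtract 1 constant per array from all log2 values. The members therefore stayed at -0.75 relative to the median of all genes, which the method fixes and which is no check. The share of all PC3 genes that were 1.5-fold lower was 6.59% with the 50th percentile and 26.4% with the spike-ins, and the share 1.5-fold higher was 15.6% and 2.79%, against 8.20% in the main setting. Every member kept a negative log2 ratio in both lines under each alternative that gave it a value, though the 2 filters could not change these ratios.

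**Figure D4:**
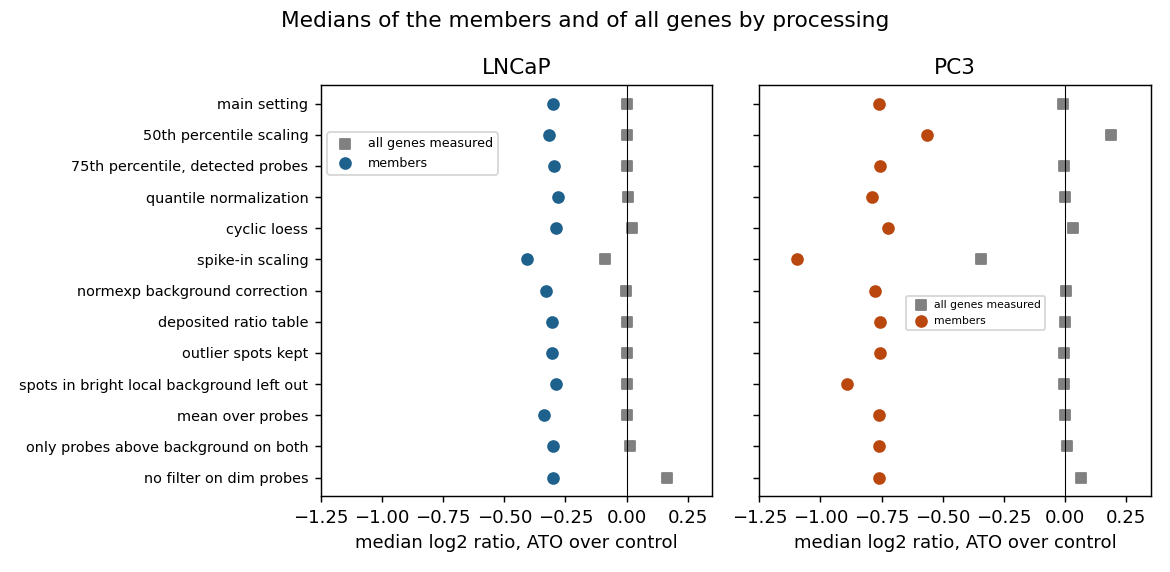
Median log2 ratio, ATO over control, of the members (circles) and of all genes measured (squares) under the main setting and 12 alternatives, for each line. The members lie left of all genes in each row. The PC3 medians are -0.56 and 0.19 with the 50th percentile and -1.10 and -0.34 with the spike-ins. They shift together because these scalings move all values of an array by 1 constant.

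Some member spots lay in areas of bright local background, where the background exceeded the array's median by more than 3 scaled MAD. There were 1 such spot in LNCaP control (POLE), 3 in LNCaP ATO (1 PCNA copy, RFC4 and POLA1), 2 in PC3 control (1 PCNA copy and POLD1) and 3 in PC3 ATO (2 PCNA copies and RFC5). Over all spots the share was 0.348%, 14.1%, 8.35% and 15.3% on these arrays. Without the spots concerned, 5 members kept a value in every array, and all 5 were lower in both lines, with medians of -0.29 in LNCaP and -0.89 in PC3. The part of bright background in the values of the other 5 members was not tested.

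limma, fitted over all 4 arrays with cell line as a block, treated the lines as replicates of the treatment and had 1 residual degree of freedom. Of 11902 genes tested, 0% passed an adjusted p of 0.05 for ATO, and none of the 10 members did. The smallest adjusted p, 0.762, was also that of every member. At an unadjusted p under 0.05, 532 genes passed, 295 of them lower after ATO, or 2.48% of the genes tested. Of the members 6 passed that level, all lower, but 0 did without the block or without the filter on dim probes. These were RFC4 (log2 difference -0.54, limma unadjusted p = 0.0169), FEN1 (-0.66, 0.0246), RFC5 (-0.63, 0.0331), POLE (-0.49, 0.0340), POLD1 (-0.49, 0.0482) and PCNA (-0.63, 0.0486). With quantile normalization, cyclic loess or the deposited ratios, PCNA and POLD1 did not pass and the other 4 did. With the 50th percentile RFC4, POLE and POLD1 did not pass. POLE also failed with normexp, and POLE and POLD1 with the mean over probes. In the main setting RFC3 did not pass (-0.64, limma unadjusted p = 0.0637), and its values in the lines were farther apart. RFC3 did pass with the 50th percentile, normexp and the mean over probes, among others.

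Between the untreated lines the members had no common direction. The members were higher in PC3 control in 5 cases and lower in 5, with a median log2 difference of -0.02 (all genes, -0.05). RFC4 alone passed 1.5-fold, at -0.72, in the lower direction, compared with 30.3% of all genes, and none passed it in the higher direction, compared with 28.5%. RFC4 itself fell short of 1.5-fold with normexp (-0.57) and with cyclic loess (-0.49), among others. The other values ran from -0.49 for RFC5 and -0.42 for FEN1 to 0.17 for RFC3 and 0.19 for POLD1. With the 50th percentile all 10 were lower in PC3 control, so the direction of the small differences depended on the scaling. These control arrays are the same that entered the ATO ratios.

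In the limma fit, the difference of PC3 from LNCaP over both treatments passed an adjusted p of 0.05 in 3 of 10 members. Of the 11902 genes tested, 53.8% passed. Here the control and ATO arrays of a line stood in as its replicates, so spread between like cultures was not measured. The estimates average over both treatments and so include the ATO differences. Between the control arrays alone RFC4 was at -0.72, RFC5 at -0.49 and FEN1 at -0.42. Genes well above background in 1 line only, such as KLK3 and CAV1, were not among those tested. RFC4 was lower in PC3 by a log2 difference of -0.74 (SE 0.13, limma adjusted p = 0.0177), RFC5 by -0.75 (SE 0.19, adjusted p = 0.0401) and FEN1 by -0.65 (SE 0.18, adjusted p = 0.0484). The set varied with the settings. RFC4 was the only member to pass with detected probes, quantiles, cyclic loess and spike-ins, and FEN1 the only one with bright spots left out. With the 50th percentile 6 passed, and with no filter or no block 0 did.

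A further 94 genes of replication were listed in 6 groups. In LNCaP 75 of the 91 measured were lower, compared with 45.4% of all genes, and the median log2 ratio was -0.18. Of these 91, 2 were lower by 1.5-fold and none higher, compared with 1.99% and 2.77% of all genes. In PC3 74 of 90 were lower, compared with 50.7% of all genes, and the median was -0.44. There 36 were lower and 2 higher by 1.5-fold, compared with 10.3% and 8.20% of all genes. In the limma test of ATO 21 of the 90 had an unadjusted p under 0.05, all lower, compared with 2.48% of the genes tested. Among them, ATAD5 and MCM10 entered with PC3 ATO values that were not well above background. How this count depends on the processing is not given here. None passed after adjustment.

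The helicase and origin genes, which license and fire the sites where copying starts, had the lowest PC3 median of the 6 groups, -0.84, with 16 of 22 lower by 1.5-fold. MCM10, which helps start the helicase, was at least 3.46-fold lower in PC3, where the ATO array was not well above background, and its LNCaP log2 ratio was -0.64 (-0.49 with normexp). ORC1 (ORC1L on the array), a subunit of the origin recognition complex, had -1.52 in PC3 and -0.41 in LNCaP. The helicase subunits MCM2 and MCM3 had -1.32 and -1.07 in PC3. The loading factor CDT1 had -1.16 and the kinase CDC7 -1.12. At the other end ORC4 (ORC4L) was at 0.28, or -0.18 as the mean over probes, and TOPBP1 at -0.21. CDC6 was measured only in LNCaP, at least 1.41-fold lower.

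Partner subunits of the polymerases had a PC3 median of -0.27, and 3 of 9 were lower by 1.5-fold. The primase subunit PRIM1 had -1.10 in PC3 and its partner PRIM2 -0.13, while in LNCaP they had -0.27 and -0.42. The PC3 value of PRIM2 rests on its brightest probe of 3, and was -0.51 as the mean over probes and 0.06 with the 50th percentile. POLA2, the second subunit of polymerase alpha, had -0.96 in PC3 and -0.40 in LNCaP. POLD4, the smallest subunit of polymerase delta, was higher in PC3, at 1.02, and at 0.15 in LNCaP, whereas POLD2 was at -0.27 and -0.08. Subunits of polymerase delta thus lay on either side of 0 in PC3, with POLD1 at -0.69.

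The group of RFC1, the subunits of other loaders and the checkpoint clamp genes RAD9A, RAD1 and HUS1 had a PC3 median of -0.26. Of its 9 genes 2 were lower by 1.5-fold. The median was the value of RAD9A, a clamp gene. DSCC1, of the loader that acts in sister chromatid cohesion, had -1.18 in PC3 and -0.31 in LNCaP. ATAD5, which unloads PCNA, was at least 1.87-fold lower in PC3 and had -0.83 in LNCaP, where its dim probe gave -0.33 with normexp. RAD17, which loads the checkpoint clamp, was at 0.48 in PC3.

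Genes of the lagging strand and fork support had a PC3 median of -0.50, with 5 of 16 lower by 1.5-fold. Claspin (CLSPN), a checkpoint adaptor at the fork, was at least 2.47-fold lower in PC3, and TIPIN, of the fork protection complex, had -1.11. In LNCaP CLSPN had -0.45 and TOP2A -0.37. RPA3, of the complex that coats single-stranded DNA, and the topoisomerase TOP1 lay between -0.13 and 0.12 in both lines.

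Binding partners and modifiers of PCNA had a PC3 median of -0.45, with 9 of 19 lower and 1 higher by 1.5-fold. DTL, which directs the degradation of proteins bound to PCNA, had -1.58 in PC3 and -0.34 in LNCaP. UHRF1 and DNMT1, which copy DNA methylation, had -1.37 and -1.01 in PC3 and -0.48 and -0.47 in LNCaP. The mismatch repair gene MSH6 had -1.03 in PC3. CDKN1A, whose product p21 binds PCNA, was 2.49-fold higher in PC3 and at 0.03 in LNCaP. UBE2A and UBE2B, which act in PCNA ubiquitination, were at 0.16 and 0.09 in PC3 and at 0.08 and 0.19 in LNCaP.

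Repair and mitochondrial polymerases and ligases stood nearest to all genes, with a median of -0.06 in PC3 and -0.04 in LNCaP and 1 of 15 lower by 1.5-fold. That gene was POLQ, of end joining, with -0.68 in PC3 and -0.31 in LNCaP. LIG3, a ligase of repair and mitochondria, had -0.54 in PC3 and XRCC1, its partner, -0.06. REV1, of translesion synthesis, was highest in LNCaP at 0.31, followed by POLL, a polymerase of end joining, at 0.07.

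**Figure D5:**
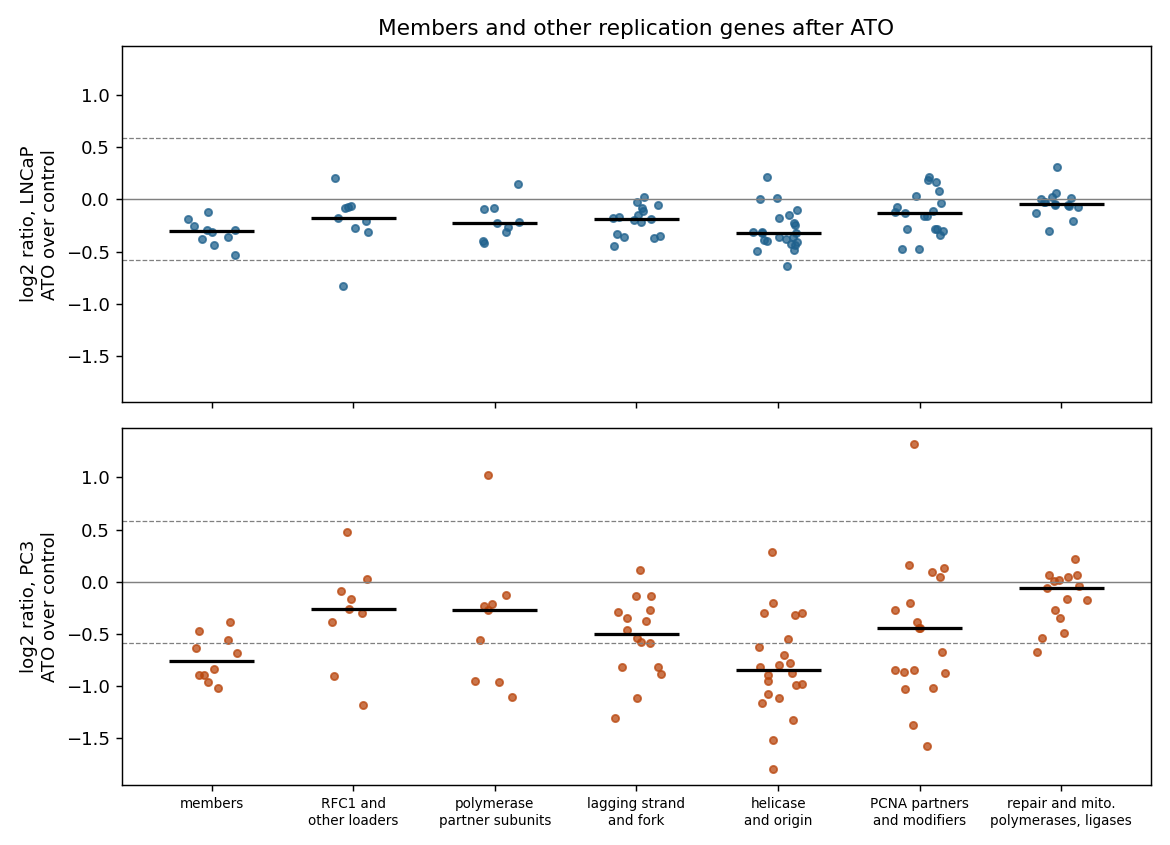
Log2 ratios of ATO over control in LNCaP (top) and PC3 (bottom) for the members and 6 groups of other replication genes, 1 point per gene, with a black bar at each median, a grey line at the median of all genes and dashed lines at 1.5-fold. The PC3 medians are -0.76 for the members, -0.84 for helicase and origin genes and -0.06 for repair and mitochondrial polymerases and ligases. The group labelled RFC1 and other loaders also holds the checkpoint clamp genes RAD9A, RAD1 and HUS1.

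Markers of proliferating cells were low on the same arrays. All 9 of 9 were lower after ATO in both lines, with medians of -0.31 in LNCaP and -0.43 in PC3. Their summed log2 level went from 6.28 to 6.03 in LNCaP and from 6.40 to 6.04 in PC3. MKI67 had -1.03 in PC3 and -0.06 in LNCaP, and TOP2A -0.81 and -0.37, while CCNB1 had -0.14 and -0.17. The part of the share of dividing cells in the values of the members was not tested. The labelled lines carried their own markers. All 5 LNCaP markers reported here, among them KLK3, were well above background in LNCaP and 2 of 5 in PC3, and all 6 PC3 markers, among them CAV1 and CD44, in PC3 and at most 2 of 6 in LNCaP. Some of them differed on the PC3 ATO array: CAV1 was 2.39-fold and PLAU 2.01-fold lower than in PC3 control, and TMPRSS2, an LNCaP marker, was 2.03-fold higher. Their part in the values of the members was not tested.

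Of 11006 genes well above background on all 4 arrays, those with the profile most like PCNA, by the distance between the 4 centred log2 values, were CHAF1B (distance 0.06), GINS1 (0.08), ACTG1 (0.08), LRIG3 (0.08) and LOC100132984 (0.13). CHAF1B, of the chromatin assembly factor that binds PCNA, had -0.30 in LNCaP and -0.87 in PC3. GINS1, of the replicative helicase, had -0.36 and -0.96, and ACTG1, a cytoplasmic actin, -0.20 and -0.97. Nearest to the mean profile of the members were PARP1 (0.07), USP37 (0.07), RFESD (0.07), DPF1 (0.09) and SFRS7 (0.10). PARP1, a sensor of DNA breaks, had -0.22 and -0.73. With 4 arrays many genes can come close to any profile, and the distances are a description.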

How the data were processed

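RNA of 4 groups (control and ATO in LNCaP and PC3) was hybridised to 1-colour Agilent arrays, 1 array a group. The authors deposited scanner files from Agilent Feature Extraction 9.5.3.1 on the hg18 build. Per the file headers they hold spot intensity on a linear scale, background-subtracted and detrended. The authors also deposited a table with a ratio for each probe, which for 99.4% or more of probes above 1 lay within 2% of the processed intensity over the array's 75th percentile, with a lowest value of 0.03. No exon annotation of hg18 was used here.

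Outlier spots were left out, repeated spots were averaged on the log2 scale, and each array was scaled by subtracting its 75th percentile. More than 50% of a probe's spots had to be well above background for the probe to be called so. A gene took its brightest probe. Where 1 array of a pair was not well above background, its value was replaced by the lowest one well above background on that array if that was higher, and the fold is given as at least that. The highest and lowest share of spots well above background were 52.9% and 48.5%, and no spot was saturated. Within a line there is no test. limma 3.58.1 (R 4.3.3; lmFit and eBayes, two-sided, Benjamini-Hochberg over all genes tested) fitted treatment and cell line, at measured values. The code was tested on simulated data.

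The members, gene lists, markers and tests were chosen with earlier results of these data known. The text names all members, list genes changed 2-fold in either line or among the 2 highest and lowest of a list, and the 5 genes nearest to PCNA and to the members' mean. Of the 94 other replication genes 1 (CDC45L) had no value on all arrays. A further listed marker of LNCaP is not reported here. Alternatives were 5 scalings, normexp (offset 50), the deposited ratio, outlier spots kept, spots in bright local background left out, the mean over probes, 2 filters, a 2-fold threshold, an intensity trend in limma and no block.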

Additional observations from a re-analysis of the deposited data

Results flagged for a closer look

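Among the other replication genes named by the rule given above, 9 had log2 ratios of ATO over control with opposite signs in the lines. Genes outside that rule, such as MSH3 (0.041 in PC3 and -0.13 in LNCaP), did so too and were not counted. The difference between the lines was not tested. In PC3 and LNCaP in turn, RAD17 had 0.48 and -0.06, RAD9A -0.26 and 0.21, CHTF8 0.023 and -0.084, and RPA3 0.12 and -0.02. TOP1 had -0.13 and 0.02, ORC3 (ORC3L on the array) -0.32 and 0.02, POLG 0.062 and -0.025, and POLM 0.21 and -0.13. SHPRH had -0.27 in PC3, a bound, since its ATO array was not well above background, and 0.22 in LNCaP. A sign changed under some alternative for CHTF8, RPA3, TOP1, ORC3, POLG and POLM. POLM, for example, was at -0.061 in PC3 and 0.095 in LNCaP with normexp background correction. For CHTF8, RPA3, TOP1 and POLG both ratios were nearer to 0 than 0.20, the lowest scanner error of the members' single spots. None of the 10 members had opposite signs, and the share of all genes that did was not counted.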

How the results depend on the processing

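The direction of each member in LNCaP and PC3 was the same in every alternative that gave it a value. The 2 filters could not change it, as all 10 members were well above background on all 4 arrays. Keeping outlier spots changed only the scaling, as no member spot was an outlier. Across the main results, 111 of 144 values under the alternatives were labelled as unmoved and 33 as moved. For single genes the numbers were 1078 and 196 of 1274. The label was loose for counts and does not measure agreement. The PC3 count of 7 members was labelled unmoved at 5 and at 10, and the LNCaP count of 0 as moved at 1. No value past 1.5-fold changed sign. Values nearer to 0 did: the median between controls, -0.02, under 5 alternatives, and single genes in 40 of 1274 values, among them 6 members between controls (PCNA, RFC3, POLA1, POLE, POLD1 and LIG1). The cause of the moves was not tested, except where fewer genes were measured or the threshold itself changed, and for POLE with the mean over probes. Under spike-in scaling 1 member in LNCaP was 1.5-fold lower, and of the other replication genes 4 in LNCaP and 61 in PC3 were. The LNCaP count of other replication genes was 1 with quantile normalization and with cyclic loess and 0 with normexp. At 2-fold, 1 member and 14 other replication genes were lower in PC3, and 0 other replication genes in LNCaP. With spots in bright local background left out, 5 members were measured and 3 were 1.5-fold lower in PC3. The PC3 median of the members was -0.56 with the 50th percentile, -1.10 with spike-ins and -0.89 with bright spots left out. The median between controls was -0.47 with the 50th percentile, 0.14 with detected probes, 0.16 with cyclic loess and 0.19 with spike-ins. Members at an unadjusted limma p under 0.05 for ATO were 10 with spike-ins, 2 of 5 with bright spots left out and 0 with no filter or no block. For cell line, members with an adjusted p under 0.05 were 6 with the 50th percentile, 1 with detected probes, quantiles, cyclic loess, spike-ins or bright spots left out and 0 with no filter or no block, and at an unadjusted p they were 8, with the 50th percentile, 1 with bright spots left out, 1 with no filter and 0 with no block. The adjusted p of the members for ATO was at least 0.474 in every alternative. The limma fit with cell line as a block pairs the arrays of a line, and the fit without it is given above. Probes near background, such as those of MCM10 and CLSPN in PC3 ATO, give bounds only.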
